A study of Mus musculus with 11 samples.

Results

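RFX2 binding sites were mapped by chromatin immunoprecipitation and sequencing (ChIP-seq) in ependymal cells of the mouse, whose many motile cilia move fluid through the ventricles of the brain. All 1250 peaks of the deposited RFX2 list were taken, out of 18008 peaks in the 3 lists of the series, a share of 6.94%. The RFX2 ChIP group holds 2 samples precipitated with an RFX2 antibody, whose lot differed between the replicates, and the RFX2 input group holds 2 samples of chromatin without precipitation. All 4 samples came from wild-type OF1 mice, an outbred strain, as primary cultures of ependymal cells differentiated ex vivo; their tissue is labelled as lateral walls of the embryonic brain and their age as P0. The 2 ChIP replicates enter 1 merged list of reproducible peaks, so values are given without replicate error and no test between conditions was made. The series measures no RNA in these samples, so the identity of the cells could not be checked against marker genes. Read depth is unknown. Intervals beside percentages are 95% exact Clopper-Pearson intervals and reflect only the counting of peaks, genes or promoters. Where a count is 0, the share said to be allowed is that of 3 counts, which is slightly lower than the upper end of the exact interval (for 0 of 15, 20% and 21.8%).

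RFX proteins belong to the winged-helix transcription factors and recognise the X-box, an imperfect inverted repeat made of a left arm, a short spacer and a right arm. They bind as homodimers or heterodimers, with each partner contacting an arm of the element. RFX2 and RFX3 are known as regulators of genes for motile cilia, and RFX2 is also needed for sperm tail formation in the mouse. A peak is a stretch of genome with more ChIP reads than background, and its summit is the base with the strongest signal. The strength of a peak is given below as the authors' fold enrichment over background and as the authors' −log10 q, which is larger for a lower q-value.

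The sequences under the strongest RFX2 summits that lay in a RefSeq promoter window come first, as the DNA at the centre of those peaks. They run 5′ to 3′ along the gene's strand and were taken from the RefSeq promoters of GRCm38.p6, with up to 50 bases on either side of the summit. Capitals mark an X-box match where the stretch holds any of the 3 X-box patterns spelled out with the counts, and otherwise each match to an X-box arm. Both strands were searched for the arm GTTGCC. The variant GTTACC was also searched, and so was a variant that ends in T, GTTGCT.
Tmx4, chr2:134644191-134644291, minus strand: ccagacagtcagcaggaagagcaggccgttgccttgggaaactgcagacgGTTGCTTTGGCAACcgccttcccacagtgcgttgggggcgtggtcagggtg
1700094D03Rik, chr3:90062708-90062808, plus strand: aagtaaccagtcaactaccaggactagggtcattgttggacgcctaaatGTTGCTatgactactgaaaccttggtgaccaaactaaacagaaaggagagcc
Mapre3, chr5:30814511-30814611, plus strand: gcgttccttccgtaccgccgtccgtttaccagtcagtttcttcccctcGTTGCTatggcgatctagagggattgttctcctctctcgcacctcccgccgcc
Lrrc56, chr7:141194954-141195054, plus strand: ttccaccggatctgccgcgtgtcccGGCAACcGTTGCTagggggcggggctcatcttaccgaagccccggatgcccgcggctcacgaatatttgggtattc
Rfx1, chr8:84066781-84066881, plus strand: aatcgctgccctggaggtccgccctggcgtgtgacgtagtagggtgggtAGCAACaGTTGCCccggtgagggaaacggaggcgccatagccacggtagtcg
Enkur, chr2:21205344-21205444, minus strand: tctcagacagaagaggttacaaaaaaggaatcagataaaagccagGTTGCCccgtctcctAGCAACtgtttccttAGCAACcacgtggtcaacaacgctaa
Cfap298, chr16:90934909-90935009, minus strand: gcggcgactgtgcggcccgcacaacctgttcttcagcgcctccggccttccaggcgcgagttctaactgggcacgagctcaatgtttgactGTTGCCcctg
Fez1, chr9:36821788-36821888, plus strand: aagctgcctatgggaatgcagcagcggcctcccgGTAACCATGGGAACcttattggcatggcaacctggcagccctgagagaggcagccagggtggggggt
Tmx4, which codes for a thioredoxin-related membrane protein of the endoplasmic reticulum, had the strongest peak at any gene end and held an X-box with 1 full arm and the outer bases of the other. Fez1, a kinesin adaptor gene, held a relaxed X-box. The promoters of Lrrc56 and Rfx1 instead held 2 arms back to back and 1 base apart, pointing away from each other. Enkur had 3 arms around its summit, and Cfap298 had 1 arm that lay away from it, near the end of the printed stretch.

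The next sequences lie under the strongest RFX2 summits in promoters of genes that build cilia, apart from Enkur and Cfap298 above. They are shown because these genes were the most often occupied among the gene lists. Capitals have the same meaning, and a stretch shorter than the others stops where the RefSeq promoter window ends.
Ttll10, chr4:156050769-156050869, minus strand: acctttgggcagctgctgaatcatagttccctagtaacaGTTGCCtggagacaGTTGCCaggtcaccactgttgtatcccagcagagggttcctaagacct
B9d1, chr11:61505104-61505193, plus strand: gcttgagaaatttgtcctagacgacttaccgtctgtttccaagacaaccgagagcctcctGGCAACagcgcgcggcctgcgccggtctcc
Tctn2, chr5:124598659-124598759, plus strand: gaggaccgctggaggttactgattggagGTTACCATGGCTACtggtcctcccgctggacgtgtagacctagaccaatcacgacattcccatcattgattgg
Bbs1, chr19:4906578-4906647, minus strand: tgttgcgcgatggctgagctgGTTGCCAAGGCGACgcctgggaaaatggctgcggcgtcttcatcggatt
Cfap20, chr8:95434957-95435057, minus strand: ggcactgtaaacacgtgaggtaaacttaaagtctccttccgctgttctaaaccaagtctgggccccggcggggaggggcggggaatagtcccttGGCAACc
Cfap57, chr4:118620736-118620830, minus strand: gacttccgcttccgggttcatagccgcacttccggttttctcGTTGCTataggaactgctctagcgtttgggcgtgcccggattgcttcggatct
Kif9, chr9:110476947-110477043, plus strand: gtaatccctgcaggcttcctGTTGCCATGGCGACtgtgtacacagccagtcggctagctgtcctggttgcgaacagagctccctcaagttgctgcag
Tctn2 and B9d1 code for proteins of the transition zone at the base of the cilium, Bbs1 for a subunit of the BBSome, and Kif9 for a kinesin of the central pair. Tctn2, Bbs1 and Kif9 held a relaxed X-box, and Ttll10, B9d1, Cfap20 and Cfap57 held arms without the whole pattern. Ttll10 had 2 arms in the same direction. The arm of Cfap20 lay away from its summit, near the end of the printed stretch.

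The most complete form of the X-box, GTTNCCNNGGNAAC, where N is any base, is shown by the strongest summits with a match in the printed stretch, in order of −log10 q and again in capitals.
Klhdc9, chr1:171360832-171360932, minus strand: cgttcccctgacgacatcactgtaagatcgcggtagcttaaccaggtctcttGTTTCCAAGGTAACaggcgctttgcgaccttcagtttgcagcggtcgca
Pifo, chr3:106001450-106001550, minus strand: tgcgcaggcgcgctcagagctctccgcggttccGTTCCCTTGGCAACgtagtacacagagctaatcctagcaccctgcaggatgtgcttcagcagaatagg
Ssmem1, chr6:30509812-30509898, plus strand: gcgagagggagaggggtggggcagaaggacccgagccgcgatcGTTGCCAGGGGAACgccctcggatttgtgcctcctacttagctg
Agbl3, chr6:34780372-34780472, plus strand: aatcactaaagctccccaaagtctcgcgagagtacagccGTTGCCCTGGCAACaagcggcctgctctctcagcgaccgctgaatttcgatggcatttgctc
Agbl3, the gene of a tubulin deglutamylase, held a perfect inverted repeat of the arm GTTGCC. Pifo codes for a protein known at the base of primary cilia.

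X-boxes were common under RFX2 summits in promoters and rare in promoters at large. A summit lay inside the promoter window of a listed start, from 250 bases before to 50 after it, for 255 of the 1250 peaks (20.4%). Of these 255 windows, 32 (12.5%, interval 8.74 to 17.3) held the strict X-box GTTNCCNNGGNAAC on either strand, against 91 of all 21263 promoter windows (0.428%). The relaxed form GTNNCCNNGGNNAC stood in 82 windows with a summit (32.2%) and in 1.96% of all windows. A form with 1 full arm and the outer bases of the other, GTTGCCNNNNNNAC, stood in 93 windows (36.5%) and in 1.60% of all. At least 1 of these 3 overlapping patterns was found in 116 windows with a summit (45.5%, interval 39.3 to 51.8), against 2.74% of all windows. Restricting the search to windows that hold the summit was decided after seeing the data. Over all 491 promoter windows of genes with a summit at an end, whether or not the window holds it, the strict X-box stood in 6.92%, the relaxed form in 18.9% and the arm GTTGCC in 39.5%.

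Single arms reached further. The arm GTTGCC stood in 164 of the 255 windows with a summit (64.3%) and in 12.6% of all windows. Its variant GTTGCT was found in 37.3% and GTTACC in 12.9% of the windows with a summit, against 13.97% and 6.66% of all windows. Any of the 3 arms was present in 220 windows (86.3%, interval 81.4 to 90.3), against 29.2% of all. The remaining windows with a summit held none of these letters, which says nothing about what RFX2 contacted there.

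The strict X-box has a spacer of 2 bases between its arms, and other spacers were rare. A spacer of 1 base, GTTNCCNGGNAAC, was found in 1 window with a summit (0.392%) and in 0.240% of all windows. A spacer of 3 bases, GTTNCCNNNGGNAAC, was found in 4 windows (1.57%) and in 0.0611% of all. Though rare, this form thus stood above its share of all windows, on a count of 4. The printed stretch of Tmx4 holds such a match in lower case, besides its marked X-box.

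The arm GTTGCC was centred on the summits. Within 10 bp of an RFX2 summit the arm GTTGCC was found 14.8 times per 1000 positions, against 0.468 per 1000 positions over all promoter windows, 31.6 times the density. In bins of 20 bp more than 50 bp from the summit, on either side, it was found 0.223 to 1.89 times per 1000 positions. The median distance from summit to the nearest match was 12.5 bp for this arm, with 125 of 164 windows within 25 bp, and 9.5 bp for the strict X-box, with 25 of 32 windows within 25 bp. For the variant GTTGCT the median was 15.5 bp, with 62 of 95 windows within 25 bp. The variant GTTACC was not centred in this way, with a median of 48.5 bp and 11 of 33 windows within 25 bp. The centre of a relaxed X-box lay a median of 45 bp upstream of the gene start (quartiles −102.25 and −15.25 bp, n = 82).

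**Figure D1:**
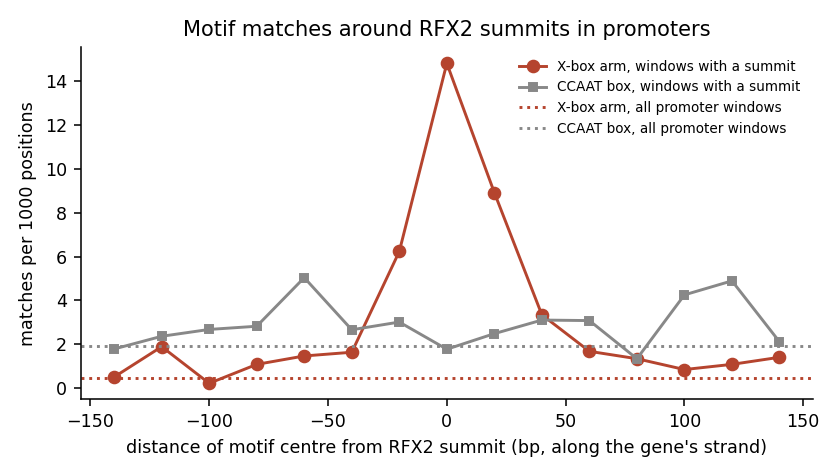
Matches per 1000 positions (vertical axis) of the X-box arm GTTGCC and of the CCAAT box by distance of the motif centre from the RFX2 summit in bp (horizontal axis), in 255 promoter windows with a summit, in bins of 20 bp. Dotted lines give the density over all 21263 windows; the arm peaks at 14.8 at the summit, and the CCAAT box stands at 1.78 there.

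Bases beyond the arm also followed the X-box. Counting from 1 at the first G of GTTGCC, 137 arms lay within 25 bp of a summit, and 2863 arms in all windows had the bases that follow within the window. GG followed at positions 9 and 10 in 57.7% of the arms near a summit and in 18.6% of all arms. AC followed at positions 13 and 14 in 61.3% near a summit and in 12.96% of all. The spacer showed A at position 7 in 53.3% against 32.3%, and T at position 8 in 48.9% against 25.6%.

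Motifs of other factors were closer to their background. The CCAAT box, bound by NF-Y, stood in 46.3% of windows with an RFX2 summit and in 38.2% of all. The GC box GGGCGG stood in 52.2% and 46.2%, and the forkhead core GTAAACA, of the kind FOXJ1 binds, in 3.53% and 3.01%. The cAMP response element TGACGTCA was found in 5.10% of windows with a summit and in 2.23% of all. TATAAA was rarer, in 3.53% against 12.6%. Median GC content was 57.3% in windows with a summit and 56.3% in all windows. Among windows with a summit, the arm GTTGCC was in 70.6% of the 119 whose peaks ranked in the upper 40% of the list by −log10 q and in 58.8% of the other 136, and the strict X-box in 15.1% and 10.3%.

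RFX2 sites divided between gene ends, gene interiors and the space between genes. A summit within 1 kb of either annotated end of a protein-coding gene was counted at a gene end, which held 368 of 1250 summits (29.4%, interval 26.9 to 32.1). Such stretches make up 3.01% of the chromosome spans that genes and peaks cover. Another 521 summits (41.7%, interval 38.93 to 44.5) lay further inside a gene, and 361 (28.9%, interval 26.4 to 31.5) lay between genes. With gene ends included, 718 summits (57.4%) were inside a gene, against 39.6% of the chromosome spans. The gene table does not separate exons from introns, so these were not told apart.

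Near starts, RFX2 summits gathered just upstream of the start. Start sites with a strand were listed for 17492 of the 21887 protein-coding genes, and 351 RFX2 summits (28.1%) lay within 1 kb of a listed start. These include 56 summits counted inside a gene, at a start that is not the gene's outermost end. Of these, 135 (38.5%) were within 50 bp, 206 (58.7%) within 100 bp and 278 (79.2%) within 250 bp. The median summit lay 45 bp upstream of the start (quartiles −131 and 10.5 bp), and 244 of 351 (69.5%) were upstream. The 100 bp just upstream of the start held 133 summits and the first 100 bp of the gene held 73, while 34 lay more than 100 bp past the start. At 48 of the 351 sites (13.7%) the summit was within 1 kb of starts of genes on opposite strands, as for Lrrc56 and Hras, Enkur and Thnsl1, Cfap57 and Ebna1bp2, and Kif9 and Klhl18.

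**Figure D2:**
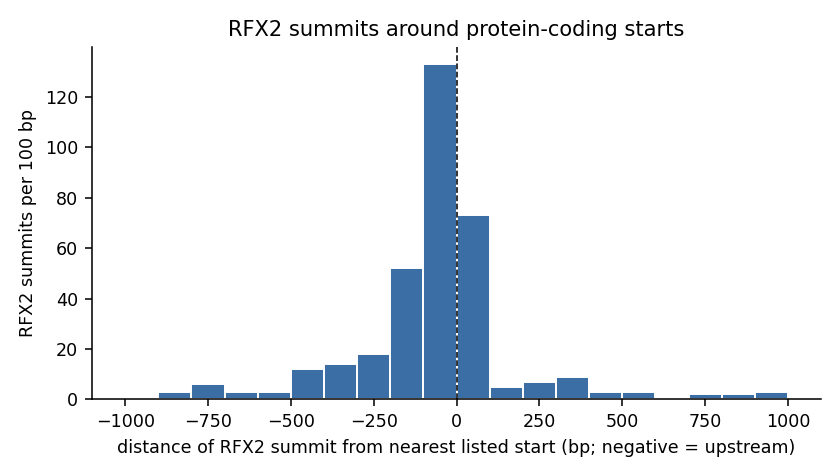
Number of RFX2 summits (vertical axis) in bins of 100 bp by distance from the nearest listed start of a protein-coding gene in bp (horizontal axis, negative upstream), for 351 summits within 1 kb, 56 of them at starts inside a gene. The bin just upstream of the start holds 133 summits and the bin just past it 73.

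The few sites at a 3′ end were the exception. In all, 455 protein-coding genes (2.08%) had an RFX2 summit at an end, through 281 summits at the end of 1 gene and 87 at the ends of 2. The end was the start for 362 of these 455 genes and the 3′ end for 29, and the strand was not listed for 64. Only 10 summits lay at a 3′ end and at no start or unlisted end. Aspdh, 4933434E20Rik and Fbxl19 were counted through a summit that also lay at the start of a neighbour.

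Peaks at gene ends had lower fold enrichment than other peaks at a like −log10 q. Their median fold was 8.74 (quartiles 7.42 and 11.2), against 10.379 inside genes and 10.3948 between genes. Their median −log10 q was 31.9, against 28.7 inside genes and 30.8 between genes. In the strongest 250 peaks by −log10 q the median fold was 14.003 at gene ends, 17.5963 inside genes and 17.6076 between genes. In the weakest 250 it was 6.77 at gene ends, 7.69 inside genes and 8.51 between genes. The share of peaks at gene ends was 31.2% in the strongest 250 and 26.0% in the weakest 250. Width differed little, with medians of 392 bp at gene ends, 420 bp inside genes and 427 bp between genes.

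**Figure D3:**
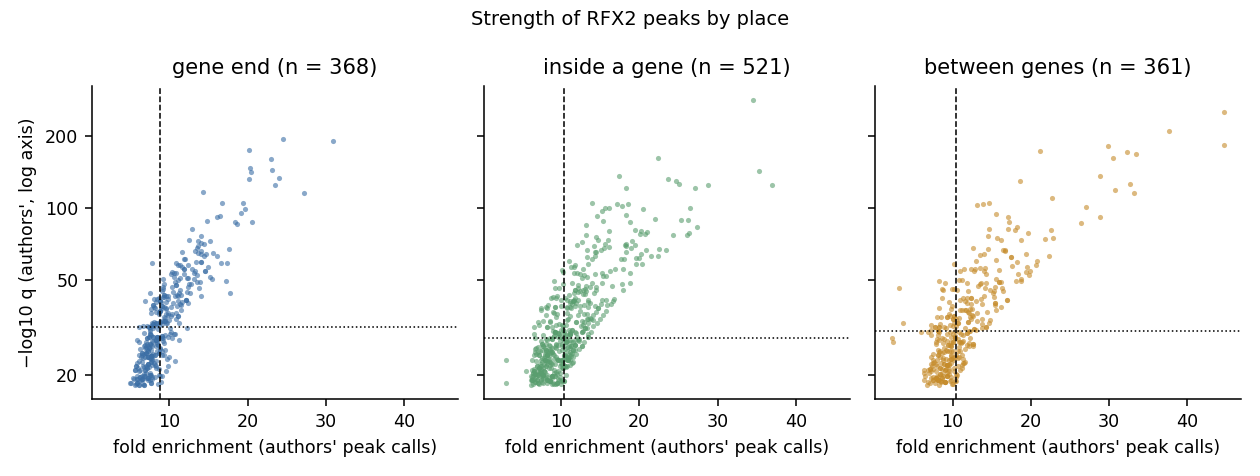
Fold enrichment (horizontal axis) and −log10 q (vertical log axis) of each RFX2 peak, both as the authors' peak calls give them, for 368 peaks at gene ends, 521 inside a gene and 361 between genes. Dashed lines mark the median fold (8.74, 10.379 and 10.3948) and dotted lines the median −log10 q (31.9, 28.7 and 30.8).

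The 25 genes with the strongest RFX2 peaks at an end rested on 19 peaks and included cilia genes, microtubule genes and genes with no known link to cilia. At 18 of the 25 the summit was listed at the start, at 5 at the 3′ end, and for 2 the strand was not listed. Tmx4 led at −log10 q 195 and fold 24.5, 120 bp upstream of its start. The uncharacterised 1700094D03Rik followed with 191 and 30.9, at 50 bp upstream.

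Microtubule and transport genes came next. Mapre3, which codes for the plus-end tracking protein EB3, had 144 and 23.1, at −80 bp from its start. Fez1 had 99.8 and 19.6, at 53 bp upstream, and Kifbp, a kinesin-binding protein gene, had 95.2 and 19.2, at 91 bp upstream. Ccdc13, of a centriolar satellite protein, had 93.0 and 16.5, at 34 bp upstream. These 4 summits all lay within 100 bp of a listed start, on its upstream side. For Fez1, Kifbp and Ccdc13 that start is not the outermost, and the summit lay 440, 518 and 20 bp inside the gene.

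Cilia genes among the 25 were Lrrc56, Enkur, Cfap298 and Cfap65. Lrrc56, a gene for assembly and transport of dynein arms, shared a summit with Hras with 142 and 20.4. It lay at −139 bp from a listed internal start of Lrrc56, 893 bp inside that gene, and at −1000 bp from the start of Hras. Enkur codes for a protein of the microtubule lumen of the axoneme, the microtubule core of the cilium; its peak had 125 and 23.5, at 29 bp upstream. Cfap298, a dynein arm assembly factor gene, had 117 and 14.2, at 110 bp upstream. Cfap65, of the central pair, had 115 and 27.2, with a summit 5 bp from an end of unlisted strand.

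The others have varied roles. Sema4b (a semaphorin) and Josd2 (a deubiquitinase) had summits 330 and 397 bp past their starts, with a −log10 q of 161 and 148. Orai3, a calcium channel gene, had a summit 750 bp upstream, and Thbs3, a thrombospondin gene, one 614 bp from its 3′ end, with 134 and 133. Spata13, Zbbx, Stoml2 (a mitochondrial membrane protein) and the chromatin remodeller gene Chd4 had a −log10 q of 106, 105, 91.7 and 88.2. Chd4 had its summit 10 bp past the start.

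Among the gene lists, those of genes that build the cilium were occupied most often. Of 283 genes in 15 ciliary lists, 65 had an RFX2 summit at an end (23.0%, interval 18.2 to 28.3), against 390 of the 21604 protein-coding genes outside these lists (1.81%) and 2.08% of all. Ciliary genes made up 65 of the 455 genes with a summit at an end (14.3%). At the ciliary genes the median summit lay 10 bp upstream of the listed start and had a −log10 q of 39.3, against 63 bp upstream and 32.3 over all genes with a summit at an end. Counts and intervals describe the lists and are no test of them.

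Intraflagellar transport, which carries cargo along the cilium, had moderate shares. Of the 7 genes of complex A, Ift122 (−log10 q 42.4) and Wdr35 (19.3) had a summit at an end. Of the 18 of complex B, 4 had one, namely Ift22, Ift57, Traf3ip1 and Ttc26, with a −log10 q from 19.9 to 38.93. Among 11 motor genes the dynein-2 subunits Wdr34 (46.8, summit 1 bp from the start) and Tctex1d2 (41.6) had one. The heavy chain of that motor, Dync2h1, had a summit 19 bp past a listed start that is 1267 bp inside the outermost end of the gene, so it was not counted at an end.

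Lists of gates, cargo adaptors and the base of the cilium ranged from 16.7% to 38.5%, with intervals that overlap those of intraflagellar transport. In the BBSome list, the coat complex that moves membrane proteins in and out of cilia, 5 of 13 genes (38.5%) had a summit at an end, led by Bbs1 (63.4) and Lztfl1 (55.6), with Bbs5, Arl6 and Bbs12. In the transition zone list 8 of 27 (29.6%) did, namely B9d1 (68.4), Tctn2 (65.8), Tmem138, Mks1, Tmem218, Tctn1, B9d2 and Rpgrip1l. In the basal body and centriole list 7 of 42 (16.7%) did, among them Cep164 (25.6), a distal appendage gene, and Cep19 (36.9).

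Motile axoneme parts ranged from the highest share of any list to 0. Radial spokes, which link outer microtubule doublets to the central pair, had 8 of 17 genes (47.1%, interval 23.0 to 72.2), with Rsph14 (55.6), Nme5 (54.5), Maats1 (53.7), Rsph4a (50.7), Lrrc23, Wdr66, Rsph1 and Ropn1l. The nexin-dynein regulatory complex and its rulers had 5 of 17, led by Cfap57 (59.7) and including Ccdc39 (41.6) and Ccdc65 (41.2, summit on the start base itself). The central pair had 5 of 18, with Cfap65, Kif9 (59.3), Spef2 (52.9), Hydin (40.8) and Ccdc180. Microtubule inner proteins and tektins had 7 of 24, led by Enkur and Cfap20 (61.3).

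Dynein arm lists had shares from 0% to 31.25%, with intervals that overlap. These were 0 to 21.8 for heavy chains, 10.3 to 56.0 for other arm and docking genes and 11.0 to 58.7 for assembly genes. None of the 15 axonemal dynein heavy chain genes, which code for the motors themselves, had a summit at an end (0 of 15, which allows a share of up to 20%). Of these genes Dnah2 alone had a summit inside it or within 10 kb, 2570 bp from an end, with a −log10 q of 28.6. Other dynein arm and docking genes had 5 of 17, led by Casc1 (51.5) and Ccdc151 (42.2), and dynein arm assembly genes, which act in the cytoplasm, had 5 of 16, with Cfap298, Dnaaf3 (51.2), Dnaaf5 (32.7), Lrrc6 (28.0) and Dnaaf1 (24.2). Tubulin modification genes had 2 of 22, Ttll10 (87.4) and Agbl3 (53.6). Small GTPases of the cilium and their lipidated cargo had 0 of 20 at ends and 0 of 20 within 10 kb, which allows a share of up to 15% each. Over all protein-coding genes these shares were 2.08% and 5.93%.

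**Figure D4:**
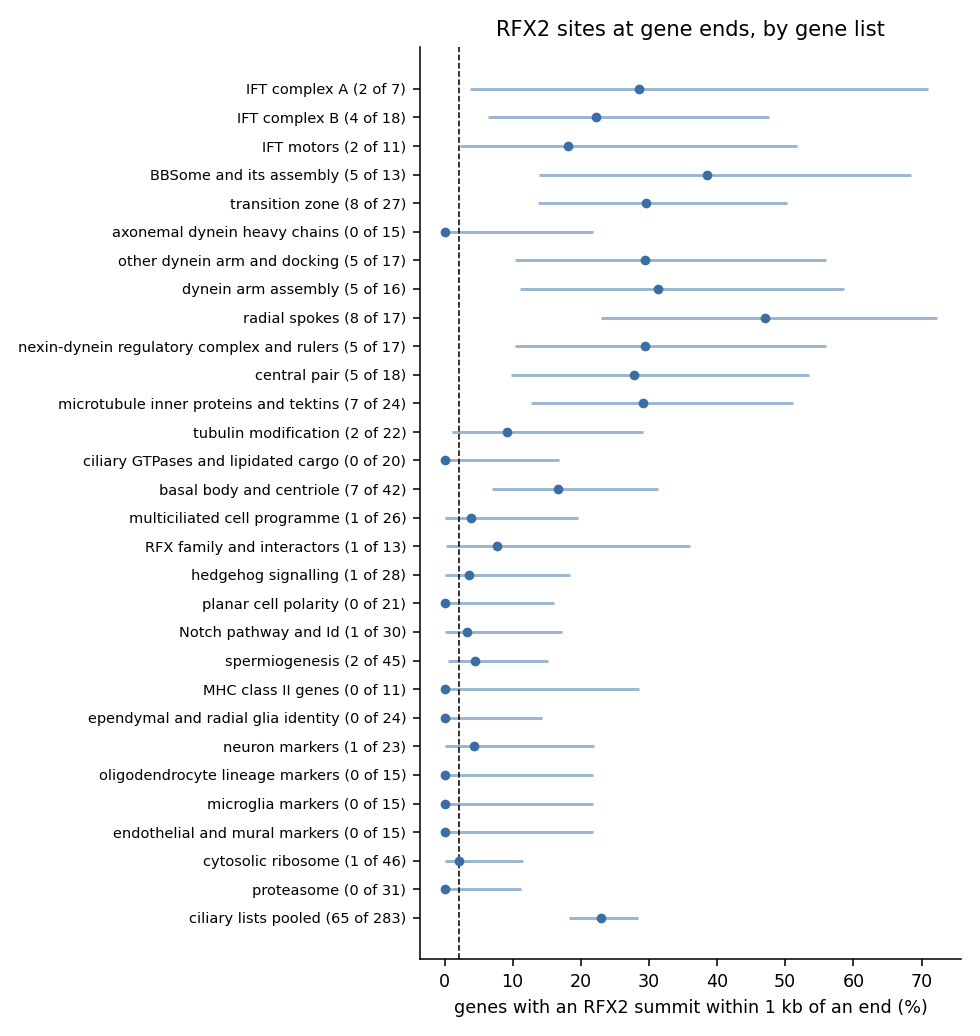
Percent of genes with an RFX2 summit within 1 kb of an end (horizontal axis), for each gene list (rows, with counts), as points with 95% Clopper-Pearson intervals. The dashed line marks 2.08%, the share of all protein-coding genes; radial spokes reach 47.1% and the pooled ciliary lists 23.0%.

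Lists outside the cilium had few or no summits at ends, where the share over all protein-coding genes was 2.08%. The upper ends of the intervals ran from 11.2% (proteasome) to 28.5% (MHC class II), so these lists are too small to place their shares closely. A summit inside or within 10 kb was found for 5.93% of all protein-coding genes. The cytosolic ribosome had 1 of 46 genes with a summit at an end, the proteasome 0 of 31 (which allows up to 9.68%), and hedgehog signalling 1 of 28. Spermiogenesis genes had 2 of 45, Spata18 (31.7) and Spata7 (19.99). MHC class II genes, targets of the RFX5 complex in immune cells, had 0 of 11 at ends and 0 of 11 around them, which allows up to 27.3%. Markers of microglia and of endothelial and mural cells had 0 of 15 each, also within 10 kb, which allows up to 20%. Neuron markers had 1 of 23, Camk2a (24.7), and oligodendrocyte markers 0 of 15. These counts concern binding and do not measure which cells the cultures held.

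Among the genes that control multiciliated cells, a minority had an RFX2 site inside or within 10 kb, mostly away from their outermost ends. Of 26 such genes only Foxj1, the master regulator gene of motile cilia, had a summit at an end, 58 bp from it (−log10 q 41.8, fold 9.87). Counting a summit inside the gene or within 10 kb, which 5.93% of all protein-coding genes had, 7 of 26 did (26.9%). They were Foxj1, Gmnc, Ulk4, Fbxo43, Rfx2, Rfx3 and Rfx4. The summit counted for Fbxo43 lay 9701 bp outside it and inside Spag1, a gene of the dynein arm assembly list. The stronger Rfx3 summit lay 88 bp past a listed start. The median gene of this list was 31.1 kb long, against 17.2 kb over all protein-coding genes, and the part of length was not tested. Gmnc codes for GEMC1, an inducer of the multiciliated fate, and its summit lay inside the gene, 8423 bp from an end, with a −log10 q of 35.7.

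RFX2 occupied its own gene and those of its close relatives. Rfx1 had a summit 5 bp upstream of a listed internal start (−log10 q 133, fold 23.7). Rfx3 had a summit 88 bp past a listed start, with 121 and 27.1 in a peak of 327 bp, and a second further inside with 63.2 and 21.5. Rfx2 had 2 summits 5432 bp apart, 11049 and 16481 bp into the gene, with 56.9 and 93.4. Rfx4 had 2 summits 387 bp apart, with 67.1 and 65.4, the closest pair in the list. No summit lay inside or within 10 kb of Rfx5, Rfx6, Rfx7, Rfx8, Rfxap or Rfxank, the first and the last 2 of which code for the complex that acts on MHC class II genes.

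Of the genes of glial identity, planar cell polarity and the Notch pathway, 20% to 29.2% had a summit around, that is inside or within 10 kb. The share over all protein-coding genes was 5.93%. Few or none had a summit at an end, where the share over all was 2.08%. More genes with a summit around (1298) than at an end (455) was also the rule over all protein-coding genes. Of 24 ependymal and radial glia identity genes, 0 had a summit at an end (which allows up to 12.5%) and 7 had one around (29.2%), namely Nfia, Nfib, Nfix, Slc1a2, Aqp4, Cd24a and Ank3. Nfia, Nfib and Nfix code for nuclear factor I proteins of glial development, and their summits had a −log10 q of 29.1, 34.3 and 32.5. Of 21 planar cell polarity genes, 0 had a summit at an end and 6 had one around (28.6%), namely Ankrd6, Daam1, Fzd3, Intu, Prickle2 and Vangl2, the last with a −log10 q of 40.9. Of 30 Notch pathway and Id genes, 1 had a summit at an end, Dtx1, 140 bp from its 3′ end with a −log10 q of 28.0. In all 6 of the 30 had one around (20%), with Maml2 (67.2), Lfng (58.7) and Notch4 (43.2) the strongest. Genes that are long offer more bases to a summit: the median gene was 14.2 kb in the glial list, 32.0 kb in the polarity list and 13.4 kb in the Notch list, against 17.2 kb over all protein-coding genes, and the part of length in these counts was not tested.

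Inside genes the strongest RFX2 site of the whole list lay in Tox2, an HMG-box factor gene, with a −log10 q of 284, a fold of 34.5 and a width of 1134 bp. Its summit was 1800 bp past a listed start and 2928 bp from the nearer end. Tppp3, a tubulin polymerisation gene, followed with 163 and 22.4 at 1947 bp from an end, and Tmem108 with 144 and 35.3 at 112405 bp. Cnih2, Rfx1, Diaph3, Ildr2, Dok6, Arhgap12 and Rfx3 made up the rest of the 10 strongest, with a −log10 q from 121 to 136. Dok6 had the highest fold of these, 36.9, at 205060 bp from an end.

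The 521 summits inside genes leaned to the first part of the gene. Over 423 pairs of gene and summit with a listed strand, cut into 5 equal stretches from start to end, the gene held 25.5% and 23.9% of them in the first pair of stretches, against 16.3%, 17.3% and 17.0% in the later ones. The median position was 0.41 of the gene's length. Of the 521 summits, 56 (10.7%) were within 1 kb of a listed start inside the gene, and 61 were over 100 kb from either end. The genes that held them had a median length of 96350 bp, against 17169 bp over all protein-coding genes.

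Between genes lay the 3 peaks with the highest folds of the list. The summit nearest Fra10ac1, 10830 bp from its end, had a −log10 q of 252; its fold of 44.7 was the highest of all 1250 peaks. The summit nearest Matn1 had 209.8 and 37.7 at 215777 bp, and that nearest Lcp2 had 184 and 44.6 at 20859 bp. The others of the 10 strongest had Grin2a, Fbxl16, Dhrs2, Abcc12, Arid1b, Rusf1 and Glo1 as the nearest gene, at 1014 bp (Rusf1) to 367916 bp (Arid1b) from its end. The nearest gene is a matter of position, and nothing here ties these sites to it. Over the 361 peaks between genes the median distance to an end was 34477 bp, and 84 were over 100 kb away.

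RFX2 sites were mostly solitary. The median distance from a summit to the next was 348550 bp. Within 10 kb of another summit lay 32 of 1250 (2.56%), within 50 kb 133 (10.6%) and within 100 kb 237 (19.0%). Linking summits up to 50 kb apart gave 60 pairs and 4 larger groups. The largest had 4 summits over 19.2 kb at Prr7 and Dbn1 on chromosome 13, with a −log10 q from 32.2 to 41.1; Dbn1 codes for the actin-binding protein drebrin.

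**Figure D5:**
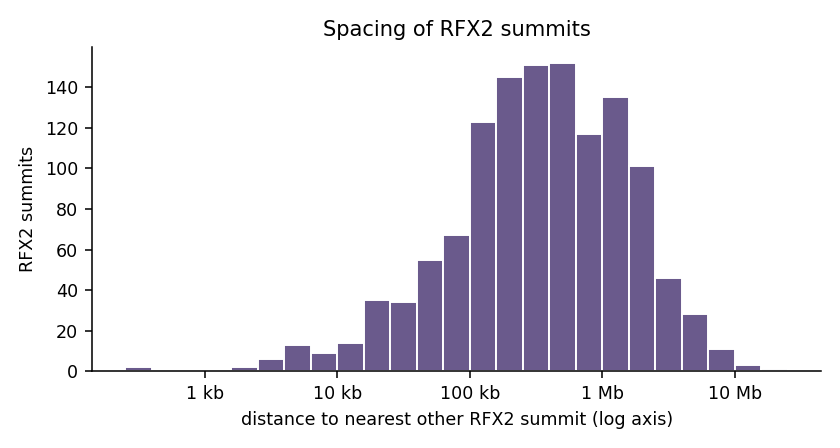
Number of RFX2 summits (vertical axis) by distance to the nearest other RFX2 summit on a log axis in kb and Mb (horizontal axis), n = 1250. The median is 348550 bp, and 32 summits lie within 10 kb of another.

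Pairs of sites within 1 gene were few. Of 692 protein-coding genes that held a summit, 41 held 2 and 0 held more. The closest pairs of the whole list after Rfx4 did not lie within 1 gene and are named by the nearest gene. They were nearest Myo16 (1728 bp apart), Trit1 (2522 bp), Ap3m2 (2693 bp) and Glipr1l3 with Caps2 (3257 bp). The Myo16 pair lay outside that gene, 29462 and 31190 bp from its end. By the stronger peak, the genes with 2 summits were led by Sema4b (161 and 48.2, 29521 bp apart), Tmem108, Rfx3, Trim2 and Rfx2. Dlg4, chosen after its values were seen, held 2 summits of near equal −log10 q, 72.8 and 70.3, at 7360 bp from each other.

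Noncoding genes were reached less often. Of 12727 lncRNA genes, 91 (0.715%) had an RFX2 summit at an end, through 91 summits, of which 54 were at no protein-coding end. The 5 strongest were at Gm46907, LOC115489723, Gm40071, Gm29461 and 4921507G05Rik. All of these but Gm29461 shared the summit with a protein-coding end, of Mapre3, Thbs3, Zbbx and Mok in that order, so the site cannot be given to either gene of a pair. Of 1228 miRNA genes, 7 (0.57%) had a summit within 1 kb, through 5 summits. Mir132 and Mir212, neighbouring miRNA genes of neurons, had a summit 30 and 239 bp away (−log10 q 45.7, fold 10.6), which lay at no protein-coding end. Mir92b had one 257 bp away with a −log10 q of 133, the peak also counted at Thbs3.

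Peaks were narrow and their summits central. The width ran from 199 to 1248 bp with a median of 416.5 bp (quartiles 337 and 526), and the 1250 peaks covered 560.617 kb. The summit lay between 0.4 and 0.6 of the peak's width in 869 cases (69.5%). Wider peaks were stronger: the strongest 250 by −log10 q had a median width of 603.5 bp and a median fold of 16.1, and the weakest 250 a median width of 333 bp and a fold of 7.67. Across the 1250 peaks of the 1 list, which share their libraries and depth, Spearman's rho was 0.608 between width and −log10 q and 0.532 between width and fold. The widest peak was in Ildr2 (1248 bp) and the narrowest near Sik1 (199 bp).

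The list held few weak peaks. The −log10 q ran from 18.2 to 284 with a median of 30.1, and the fold from 2.24 to 44.7 with a median of 9.96. The names of the peaks carry running numbers up to 3493, and 1250 of them are listed. Only 6 peaks had a fold under 4. Among these were 2 wide peaks of 812 and 1137 bp on chromosome 2, with folds of 2.33 and 3.18, 4243 bp apart and over 1 Mb from the end of the nearest gene, Lrrc4c. What kind of sequence lies under them was not examined, and without these 6 peaks the genes with a summit at an end still numbered 455.

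RFX2 peaks were spread over the autosomes and sparse on the sex chromosomes. The list held 5.71 peaks per 100 protein-coding genes, from 4.09 on chromosome 7 to 9.28 on chromosome 12 among autosomes. Chromosome X held 14 peaks (1.45 per 100 genes) and chromosome Y 0. The share of summits at gene ends ran from 13.5% on chromosome 13 to 43.2% on chromosome 16.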

How the data were processed

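RFX2 ChIP (2 samples) and input (2 samples) were read from 1 deposited list of reproducible peaks, in which the authors had merged the replicates. The submitters' processing notes list MACS2 2.0.10.20130520, Bowtie 0.12.7, CASAVA 1.8.2 and the build GRCm38 without roles. Not given in the sources used are the rule for a reproducible peak, the control sample and the read depth. The deposited score is the whole part of 10 times the −log10 q. The deposited fold enrichment was taken as the ratio over background. A further unit, the −log10 of the q-value, comes from the authors' peak calling. Of the value columns of the 3 lists, 9 were not used, among them the −log10 p. The deposited summit offset, counted from the peak's start, gave the summit. All of these describe or rank peaks within the list.

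Genes came from RefSeq (GRCm38.p6), which lists 21887 as protein-coding, and starts from RefSeq promoter windows of 300 bases. Since starts were listed for 17492 genes, a site was assigned to either end of a gene within 1 kb, in place of the start alone. Motifs were searched on both strands as exact letters. Python 3.11.15, pandas 2.3.3, numpy 2.4.6, scipy 1.17.1 and matplotlib 3.10.9 were used, and annotation and motif search were tested on simulated data.

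Named were the 25 genes with the strongest peak at an end, the 10 strongest peaks inside and between genes, list members with a summit, the genes with most summits, the closest pairs, the widest and narrowest peaks and the strongest noncoding genes; 1 result of these is not reported here. The 29 gene lists (15 ciliary) held 629 genes, of which 616 matched the gene table, 30 through aliases, and 13 did not. Members, lists and rules were chosen with earlier results of these data known. No set test was made; counts stand beside the same share over all genes or promoters. Alternatives were other windows, gene sets, peak sets, spacings and motif forms.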

Additional observations from a re-analysis of the deposited data

How the results depend on the processing

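No paired analysis was possible because the replicates are merged in 1 peak list; for the same reason no replicate could be left out. Of 47 alternative values, 31 stayed near the value reported, 15 moved and 1 changed sign. The median −log10 q at gene ends exceeded that elsewhere by 2.10, and by −0.757 among the 50% of peaks with the higher −log10 q, where ends were therefore lower; the cause was not tested. In those same 625 peaks the median width was 495 bp in place of 416.5, 12 summits in place of 32 were within 10 kb of another, 247 genes in place of 455 had a summit at an end, and the ciliary share was 15.9% in place of 23.0%, with fewer peaks by construction. Width measured as 2 times the shorter summit-to-edge distance had a median of 334 bp. Spacing counts were 18 at 5 kb and 133 at 50 kb. A window of 5 kb gave 736 genes and 42.88% of summits at ends, a window of 500 bp gave 26% of summits, and all genes of the table gave 34.8%. The strict X-box was in 6.92% of the 491 promoter windows of genes with a summit at an end; this was 18.9% for the relaxed form, 39.5% for the arm GTTGCC, 10.5% with the summit within 100 bp of an end and 12.5% in windows that hold the summit. Windows that hold the summit, listed starts only and the list without peaks of fold under 4 were chosen after seeing the data. Unknown depth limits what an absent peak can mean: it was not called.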
